A study of Mus musculus with 9 samples.

Results

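The genes described here write, copy and remove DNA methylation in the mouse late blastocyst. They were chosen by name: Dnmt1, Dnmt3a, Dnmt3b, Dnmt3l, Uhrf1, Tet1, Tet2, Tet3 and Trim28. Of these 9 listed genes, 8 were found among the 16070 rows of the deposited expression table; Tet3 was not analysed here. The RNA came from C57BL/6 embryos cultured in vitro to embryonic day 4.5, collected 4.5 days after microinjection, in 3 groups of 3 libraries. One group was wild type (WT), one carried the genotype label H3R17H substitution (arginine 17 of histone H3 changed to histidine), and one carried the label Carm1-/- (loss of the arginine methyltransferase that acts on this residue). The title names CRISPR-Cas9 editing. The labels do not say what the WT embryos were injected with, whether edited embryos were mosaic, or whether the libraries of a group came from separate embryos. The preparation is described both as an embryo and as a single cell, so p-values measure only the spread between these libraries. Values are FPKM, fragments per length of transcript and per number of mapped fragments. They are set per length, but allow only a rough comparison between genes, because the quantifier and the annotation are not given.

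A methyl group on the cytosine of a CpG dinucleotide is copied to the new strand after replication by Dnmt1, which Uhrf1 brings to half-methylated DNA. Dnmt3a and Dnmt3b place methyl groups on unmodified DNA, and Dnmt3l, a relative without catalytic activity, stimulates both. Tet enzymes oxidise the methyl group, which opens the way to its removal, and Trim28 is the corepressor that zinc finger proteins use to hold heterochromatin and methylation at imprints and retroelements. The blastocyst is the stage at which the genome of the mouse embryo carries little methylation, just before the wave of new methylation at implantation.

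Whether the promoters of these genes themselves offer CpG sites to methylation was read from RefSeq windows on GRCm38.p6, from 250 bases before to 50 bases after each annotated start. All 8 genes had a window, 15 windows in all, of which the first pair of Dnmt3a overlap. The median over all 32841 mouse windows was 7 CpG. In 7 of the 8 genes at least 1 window held that many or more, with at most 57 for Tet2, 47 for Dnmt3a, 33 for Dnmt1 and for Uhrf1, 30 for Dnmt3b, 23 for Trim28 and 17 for Tet1. Dnmt3l was the exception, with 6, 4 and 3 CpG in its 3 windows. The windows of Dnmt3b (chr2:153649199-153649498, plus strand) and Tet2 (chr3:133544341-133544640, minus strand) are shown because limma gave these genes the smallest unadjusted p of the 8 under the labels H3R17H and Carm1-/-, and the most upstream window of Dnmt3l (chr10:78042037-78042336, plus strand) because this gene differed in the other direction. Each is written 5′ to 3′ with every CpG in capitals.
Dnmt3b: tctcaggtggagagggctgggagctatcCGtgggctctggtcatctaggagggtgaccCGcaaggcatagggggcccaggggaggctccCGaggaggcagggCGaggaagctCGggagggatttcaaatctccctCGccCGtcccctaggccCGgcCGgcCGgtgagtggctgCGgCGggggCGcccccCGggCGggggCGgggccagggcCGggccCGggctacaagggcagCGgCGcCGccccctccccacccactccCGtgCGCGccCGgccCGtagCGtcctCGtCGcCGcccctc
Tet2: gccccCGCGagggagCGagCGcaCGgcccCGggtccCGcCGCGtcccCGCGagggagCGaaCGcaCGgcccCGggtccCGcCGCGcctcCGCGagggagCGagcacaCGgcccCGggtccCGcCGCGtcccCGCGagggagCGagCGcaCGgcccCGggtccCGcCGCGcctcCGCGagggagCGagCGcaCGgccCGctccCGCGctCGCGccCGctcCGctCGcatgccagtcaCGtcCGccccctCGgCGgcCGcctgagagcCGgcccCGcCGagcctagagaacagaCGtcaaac
Dnmt3l: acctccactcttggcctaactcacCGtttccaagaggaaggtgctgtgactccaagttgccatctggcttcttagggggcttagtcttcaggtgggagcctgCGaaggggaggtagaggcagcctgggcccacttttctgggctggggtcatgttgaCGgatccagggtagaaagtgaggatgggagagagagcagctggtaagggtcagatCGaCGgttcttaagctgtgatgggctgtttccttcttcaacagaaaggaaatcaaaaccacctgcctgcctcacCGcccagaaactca

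CpG sites run through the whole Tet2 window, are densest in the downstream part of the Dnmt3b window and are scattered in that of Dnmt3l. On either strand, the GC box letters GGGCGG occurred in 12 of the 15 windows, against 35.7% of all windows. These letters contain a CpG, and all windows were not matched to the 15 for CpG content. The core letters of the motif bound by Tead factors, the DNA-binding partners of Yap named in the title, GGAATG, occurred in 2 windows, the third of Dnmt3l and the first of Uhrf1, against 14.7% of all windows. The letters CCAAT occurred in 4, against 37.4%. These are matches of letters in a short window and say nothing of binding.

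Some facts about the libraries touch every result. First, Carm1 RNA was at 6.65 to 8.86 FPKM in WT, at 0.02 to 1.88 FPKM under the label H3R17H and at 6.44 to 12.68 FPKM under the label Carm1-/-, and the column names of the table swap the 2 edited groups in the same way; directions below therefore refer to libraries as labelled. Second, library 1 labelled Carm1-/- stood with WT on several counts. The summed FPKM of 4 Y-linked genes was 30.7 to 35.7 in WT, 36.6 and 28.1 in library 1 of each edited group, and 0 in the other 4 edited libraries, to 1 decimal. Xist, the RNA that silences 1 X chromosome in female cells, was at 0.19 to 0.43 FPKM in WT and 0.26 FPKM in library 1 labelled Carm1-/-, at 4.84 FPKM in library 1 labelled H3R17H, and at 16.58 to 32.54 FPKM in the other 4. The summed FPKM of 15 trophectoderm markers was 5727.5 to 8749.9 in WT and 9252.4 in library 1 labelled Carm1-/-, but 1673.2, 1722.4 and 4681.7 under the label H3R17H and 2133.5 and 2641.8 in libraries 2 and 3 labelled Carm1-/-. The keratins Krt8 and Krt18 made up 78.7% to 91.7% of this sum. The other 13 markers summed to 835 to 1357.5 FPKM in WT, 1074.7 FPKM in library 1 labelled Carm1-/- and 219.4 to 444.4 FPKM in the other 5 edited libraries. In those 5 libraries 10 to 13 of the 15 markers lay below every WT library and 0 to 3 above, for example Tfap2c in libraries 2 and 3 labelled H3R17H and Krt7 in library 2 labelled H3R17H and library 3 labelled Carm1-/-; in library 1 labelled Carm1-/- there were 5 below and 5 above. Of these markers none was at 0 in WT or in library 1 labelled Carm1-/-, and Gata2, Elf5 or both were at 0 in the other 5. The 14 epiblast markers found, of 15, summed to 461 to 623.9 FPKM in WT and, over the 6 edited ones, to 489.4 to 591 FPKM, with Prdm14 at 0 in libraries 2 and 3 and Fgf4 in library 2 labelled H3R17H. This sum hides markers that moved in opposite directions. Tdgf1 was at 39.9 to 56.06 FPKM in WT and at 5.94 to 18.36 FPKM under the label H3R17H. Zfp42 was at 45.48 to 50.2 FPKM in WT and at 74.28 to 135.74 FPKM in the edited libraries. The 14 primitive endoderm markers found summed to 223.9 to 293.1, 163.5 to 199.9 and 120.2 to 305.1 FPKM in the 3 groups, with 0 to 3 of them at 0 per library. Most of these markers had lower means under the label H3R17H than in WT, while Gata6 and a few others had higher ones. Pdgfra was at 0.01 to 1.82 FPKM, against 6.05 to 9.44 FPKM in WT, and Gata6 at 36.15 to 52.42 FPKM, against 21.74 to 29.05 FPKM. The part of sex in the results was not tested beyond the fits with a Y-linked term given beside them. The part of lineage makeup was not tested, and fewer cells of a type cannot be told apart from less RNA per cell. Depth is unknown, because FPKM carry no counts.

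In WT the corepressor Trim28 stood far above the enzymes, at 123 ± 12.8 FPKM (SD, n = 3). Dnmt3b at 31.6 ± 3.48, Uhrf1 at 30.4 ± 10.8, Dnmt3l at 30.1 ± 5.66 and Tet2 at 24.8 ± 4.07 FPKM followed, and neighbours among these 4 had overlapping libraries. Dnmt1 at 10.7 ± 0.981, Dnmt3a at 9.92 ± 1.48 and Tet1 at 7.26 ± 1.66 FPKM formed a lower set, again with overlapping neighbours, and every library of the upper set lay above every library of the lower set. Dnmt3b thus outweighed Dnmt3a by 2.93 to 3.39 times within each WT library, and Tet2 outweighed Tet1 by 2.61 to 5.5 times. Under the label H3R17H the order changed: Dnmt3l came second at 42.2 ± 4.19 FPKM, apart from all others, and Dnmt3b came after Uhrf1 and Tet2, at 14.2 ± 0.774 FPKM, below every Tet2 library.

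**Figure D1:**
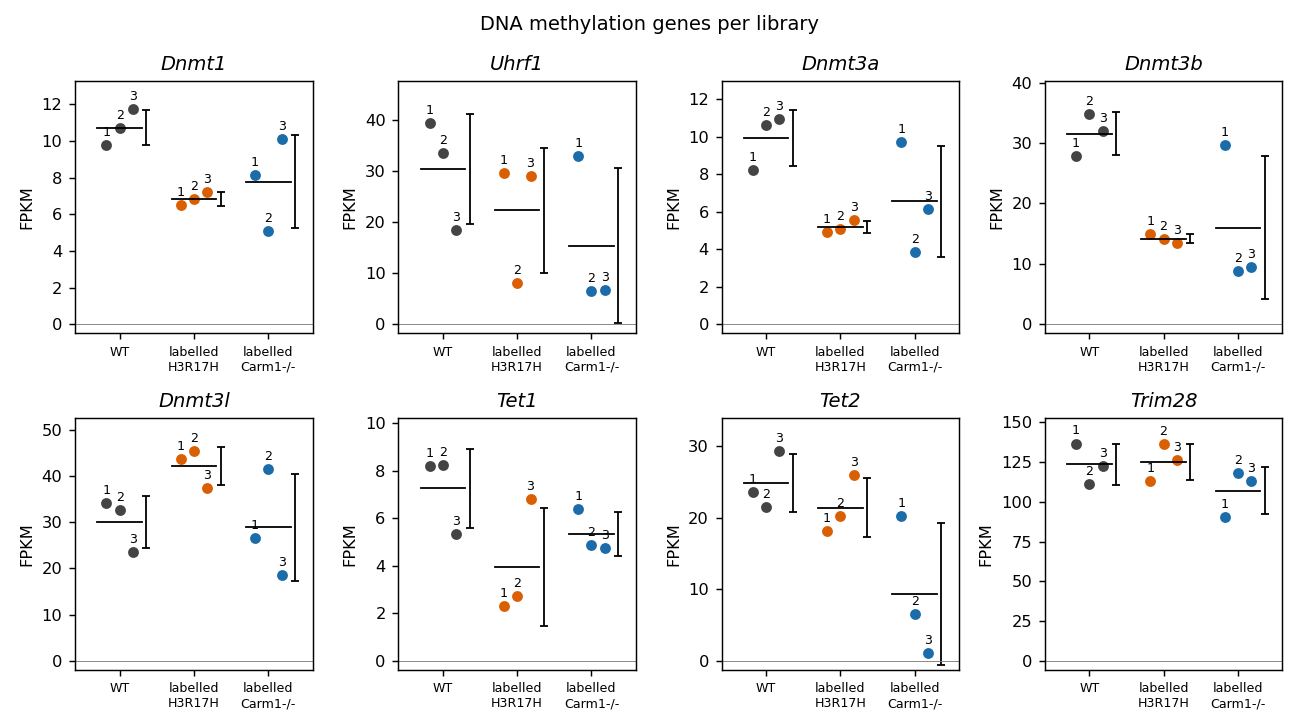
Points give the FPKM of the 8 genes in single libraries, with the replicate number beside them, the mean of 3 libraries (horizontal line) and its SD (error bar at the right), for each label. The 3 libraries labelled H3R17H lie close together and below WT for Dnmt1, Dnmt3a and Dnmt3b, and above WT for Dnmt3l; under the label Carm1-/- library 1 lies apart from libraries 2 and 3 for Dnmt3b, Uhrf1 and Tet2.

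The first comparison asked how the libraries labelled H3R17H differed from WT. The 3 catalytic methyltransferases were all lower, Dnmt3b most, at 0.45 times the WT mean, while their cofactor Dnmt3l was higher, at 1.4 times. Each of these 4 genes had libraries that did not overlap those of WT. None passed the test, a limma fit over all 9 libraries and 11850 genes with Benjamini-Hochberg adjustment and a threshold of 0.05; the same fit called 0% of all genes, with 759 higher and 918 lower at an unadjusted p under 0.05. Libraries lay wholly below WT for 3 of the 8 genes, 37.5%, against 15.6% of all genes, and wholly above for 1, 12.5%, against 13.3%. At an unadjusted p under 0.05 there were 2 of 8 genes, Dnmt3a and Dnmt3b, against 14.2% of all genes. The median difference of the 8 genes was -0.57 on the log2(FPKM + 1) scale, against -0.03 over all genes.

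Dnmt3b, the main enzyme of new methylation in the early embryo (chromosome 2, 153649450 to 153687730, plus strand), was at 27.89, 34.81 and 32.04 FPKM in WT libraries 1 to 3. Under the label H3R17H its values were 14.97, 14.09 and 13.43 FPKM. All 3 libraries of this label lay close together, and the highest was well below the lowest WT library The difference was -1.10 on the log2 scale (SE 0.40, 95% interval -1.98 to -0.22, limma adjusted p = 0.282). With only these 2 groups in the fit the SE was 0.21 and Dnmt3b passed (adjusted p = 0.0401), where 2.03% of all genes did. With a term for Y-linked transcripts the difference was -0.53 (adjusted p = 0.799), a fit that rests on library 1 of each edited group. Library 1 labelled H3R17H, at 14.97 FPKM, held Y-linked transcripts at a sum of 36.6 FPKM, against 30.7 to 35.7 FPKM in WT. Its Xist of 4.84 FPKM was above the WT libraries and below the 16.58 to 32.54 FPKM of the edited libraries without Y-linked transcripts.

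Dnmt3a, the second enzyme of new methylation (chromosome 12, 3806007 to 3914443, plus strand), was at 8.22, 10.61 and 10.94 FPKM in WT, against 4.94, 5.09 and 5.54 FPKM under the label H3R17H. The groups did not overlap, and the difference was -0.81 (SE 0.34, adjusted p = 0.328). Dnmt1, the maintenance enzyme (chromosome 9, 20907209 to 20959888, minus strand), was at 9.77, 10.7 and 11.73 FPKM in WT, against 6.48, 6.82 and 7.23 FPKM under that label, again without overlap, for a difference of -0.58 (SE 0.30, adjusted p = 0.402). The 3 enzymes together summed to 45.9 to 56.1 FPKM in WT and to 26 to 26.4 FPKM under the label H3R17H. Dnmt3l, the cofactor (chromosome 10, 78041947 to 78063622, plus strand), was at 34.07, 32.65 and 23.63 FPKM in WT, against 43.65, 45.47 and 37.48 FPKM under that label, a difference of 0.49 (SE 0.30, adjusted p = 0.486).

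These opposite directions show in ratios within a library, which scaling between libraries cannot move. The ratio of Dnmt3l to the sum of Dnmt3a and Dnmt3b was 0.94, 0.72 and 0.55 in WT libraries 1 to 3 and 2.19, 2.37 and 1.98 under the label H3R17H. Every library of that label thus lay above the highest WT ratio, and the groups did not overlap. Under the label Carm1-/- the ratio was 0.68, 3.27 and 1.2, within WT in library 1 and above it in the other 2. Dnmt3b to Dnmt3a was 2.93 to 3.39 in WT, 2.43 to 3.03 under the label H3R17H and 3.05, 2.32 and 1.54 under the label Carm1-/-, with overlap between the groups. These ratios were chosen after the values were seen and carry no test.

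**Figure D2:**
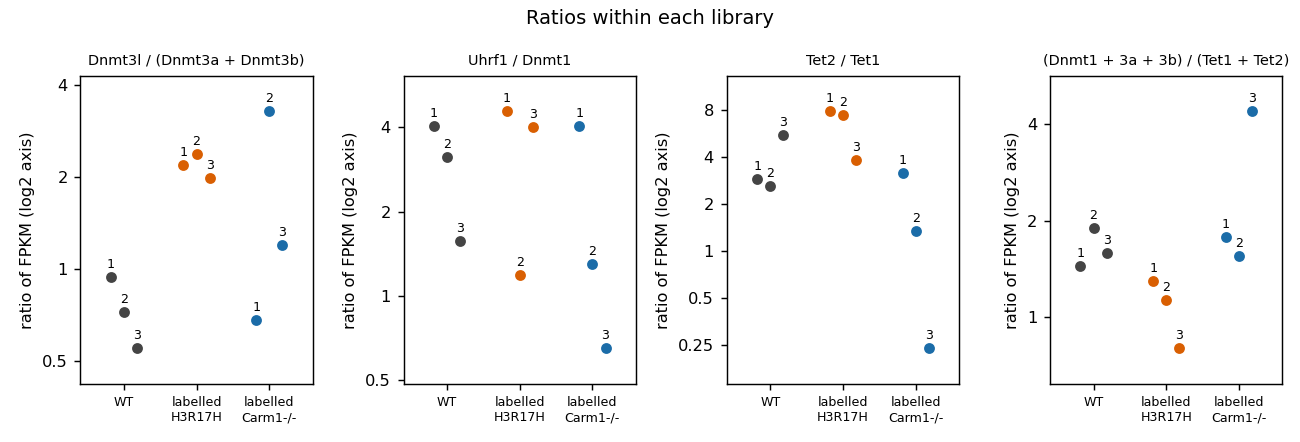
Ratios of FPKM within each library on a log2 axis (points, numbered by replicate, coloured by label). The ratio of Dnmt3l to Dnmt3a plus Dnmt3b is 1.98 to 2.37 in the libraries labelled H3R17H and at most 0.94 in WT, and the ratio of Tet2 to Tet1 is 0.24 in library 3 labelled Carm1-/-.

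The remaining genes overlapped WT under the label H3R17H. Uhrf1, the partner that guides Dnmt1 (chromosome 17, 56303321 to 56323486, plus strand), was at 39.33, 33.54 and 18.42 FPKM in WT, against 29.57, 8.15 and 29.06 FPKM under that label, where library 2 alone was below WT. Its difference was -0.56 (95% interval -1.98 to 0.85, adjusted p = 0.718), 0.01 without that library and 0.45 with the Y-linked term. Tet1 (chromosome 10, 62804570 to 62908996, minus strand) was at 8.2, 8.25 and 5.34 FPKM in WT, against 2.31, 2.74 and 6.8 FPKM, with libraries 1 and 2 below WT and library 3 within it (difference -0.83, SE 0.38, adjusted p = 0.36). Tet2 (chromosome 3, 133463679 to 133545139, minus strand) was at 23.59, 21.51 and 29.37 FPKM in WT, against 18.07, 20.21 and 25.95 FPKM, a difference of -0.21 (95% interval -1.64 to 1.22, adjusted p = 0.911) that turned to 0.49 with the Y-linked term. Trim28 (chromosome 7, 12999114 to 13031035, plus strand) was at 136.58, 111.1 and 122.62 FPKM in WT, against 113.23, 136.09 and 125.93 FPKM. Its difference was 0.02 with an interval of -0.41 to 0.45 (adjusted p = 0.976), the narrowest of the 8.

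The second comparison asked how the libraries labelled Carm1-/- differed from WT, and here the spread within the label was the main feature. All 8 genes had lower group means than WT, with ratios from 0.38 for Tet2 to 0.96 for Dnmt3l. Over all tested genes, 53.7% had a limma difference below 0. Tet2 was the only gene with libraries wholly below WT, 12.5% of the 8 against 9.71% of all genes, and none was wholly above, against 6.91%. None passed in limma, which called 0% of all genes. At an unadjusted p under 0.05 there were 2 of 8, Dnmt3b and Tet2, against 11.4% of all genes (622 higher and 733 lower). The median difference was -0.53, against -0.04 over all genes.

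Tet2, the more abundant Tet enzyme of this table, was at 20.29, 6.57 and 1.12 FPKM in libraries 1 to 3 labelled Carm1-/-, against 21.51 to 29.37 FPKM in WT. Library 1 was just under the lowest WT value and library 3 far below it. The difference was -1.87 (SE 0.65, 95% interval -3.30 to -0.45, limma adjusted p = 0.336), and -1.01 (adjusted p = 0.471) without library 3. Dnmt3b was at 29.62, 8.86 and 9.43 FPKM, with library 1 inside the WT range and the other 2 below every other library of the series. Its difference was -1.15 (SE 0.40, adjusted p = 0.337). Uhrf1 was at 32.88, 6.56 and 6.62 FPKM, divided in the same way (difference -1.26, SE 0.64, adjusted p = 0.474).

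Without library 1 labelled Carm1-/- the limma fit called 549 genes against WT, 4.63% of all, and 2 of the 8: Dnmt3b, at -1.68 (SE 0.25, adjusted p = 0.0125), and Tet2, at -2.68 (SE 0.47, adjusted p = 0.02). Uhrf1 stood at -1.98 (adjusted p = 0.0617) in that fit. With the Y-linked term, in contrast, Dnmt3b was at -0.58 (adjusted p = 0.978), Uhrf1 at -0.25 (adjusted p = 0.996) and Tet2 at -1.18 (adjusted p = 0.978). Libraries 2 and 3 of this label are also those without Y-linked transcripts, with higher Xist and with 11 and 13 of the 15 trophectoderm markers below WT, so label, sex and lineage cannot be told apart in them.

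The other 5 genes lay nearer to WT. Dnmt1 was at 8.15, 5.06 and 10.11 FPKM (difference -0.46, adjusted p = 0.555) and Dnmt3a at 9.72, 3.83 and 6.14 FPKM (difference -0.60, adjusted p = 0.504), with library 2 lowest for both. Without library 2 these differences were -0.22 and -0.31. Tet1 was at 6.4, 4.87 and 4.74 FPKM (difference -0.37, adjusted p = 0.726). Libraries 2 and 3 lay below every WT library for Tet1 too, but in library 3 Tet2 was the lower of the 2, and its ratio of Tet2 to Tet1 was 0.24 against 2.61 to 5.5 in WT. In the same library Dnmt1, Dnmt3a and Dnmt3b summed to 4.38 times Tet1 plus Tet2, against 1.44 to 1.89 times in WT and 0.8 to 1.3 times under the label H3R17H. Dnmt3l was at 26.56, 41.52 and 18.68 FPKM, spanning the whole WT range (difference -0.11, 95% interval -0.78 to 0.56, adjusted p = 0.914). Trim28 was at 90.41, 117.76 and 112.72 FPKM (difference -0.21, 95% interval -0.64 to 0.22, adjusted p = 0.698).

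**Figure D3:**
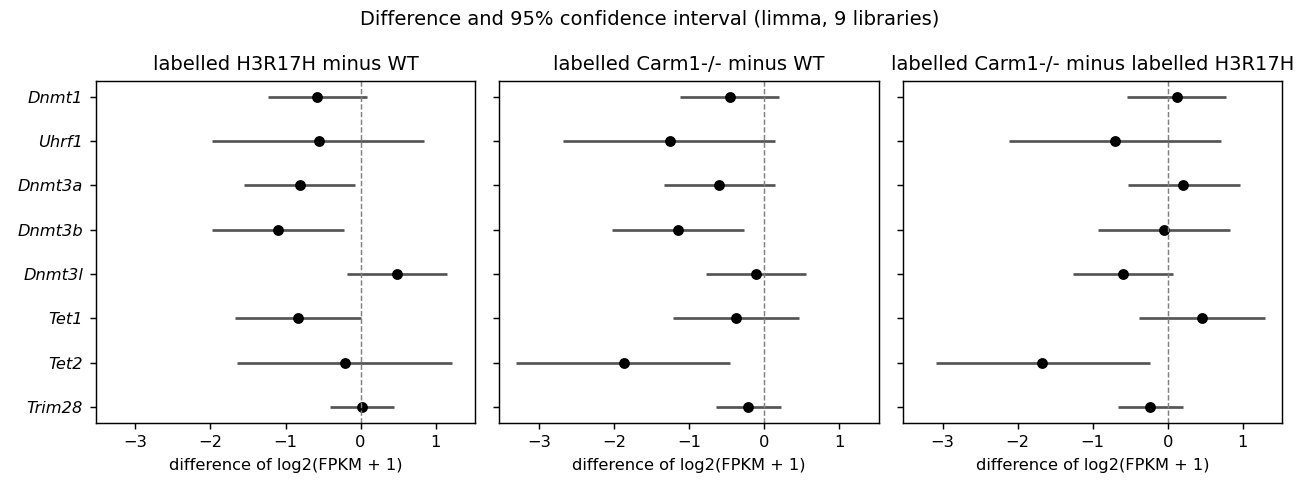
Difference of log2(FPKM + 1) between groups for the 8 genes (points) with the 95% interval of the limma fit over 9 libraries (lines), for the 3 pairs of labels. Intervals exclude 0 for Dnmt3a and Dnmt3b under the label H3R17H, for Dnmt3b and Tet2 under the label Carm1-/-, and for Tet2 between the edited groups, though no adjusted p passed.

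The edited groups were then set against each other, which tests whether their differences from the shared WT libraries were unequal. No gene of the 8 had libraries apart in either direction, against 5.13% of all genes higher and 6.07% lower under the label Carm1-/-, and none passed, where limma called 0% of all genes (485 higher and 488 lower at an unadjusted p under 0.05). Tet2 alone had an unadjusted p under 0.05, 1 of 8 against 8.21% of all genes, with a difference of -1.67 (SE 0.65, adjusted p = 0.563). Without library 3 labelled Carm1-/- it was -0.80 (adjusted p = 0.622), and without library 1 it was -2.47 (adjusted p = 0.0954). Dnmt3b differed by -0.05 with an interval of -0.93 to 0.83, and Dnmt3l by -0.60 with an interval of -1.26 to 0.07, or by -0.33 without library 3 labelled Carm1-/-. These intervals do not show that the groups were alike.

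Dnmt1 lies on the chromosome that carries Carm1, with 587 kb between them and Raver1 in that gap, 114 kb from Dnmt1. Under the label Carm1-/- the table lists Raver1 at 0 in each of the 3 libraries, and elsewhere Raver1 had 3.68 to 8.12 FPKM. Dnmt1 was detected in all 9 libraries, at 5.06 to 11.73 FPKM. Some of the 8 genes overlap another gene on the opposite strand, and whether counting used strand is not given in the sources used here. Aire, which overlaps Dnmt3l, was at most 1.29 FPKM, and Zbtb45, which overlaps the annotated span of Trim28, at most 14.19 FPKM.

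The genes that assist methylation or follow from it were read from 5 lists, and limma called none of their members in any comparison. Most genes named from these lists were picked for a small p, so their separation from WT is partly selected for. The share of all genes with all 6 edited libraries on the same side of WT was not computed. Of 12 tested genes that help maintenance or supply the methyl donor, 7 were higher and 5 lower under the label H3R17H (median 0.02) and 6 and 6 under the label Carm1-/- (median -0.01). Mat2a, which makes the methyl donor S-adenosylmethionine, was at 125.06, 140.9 and 110.48 FPKM in WT, against 252, 265.48 and 172.08 FPKM under the label H3R17H, without overlap (difference 0.85, adjusted p = 0.23). Lig1, the replicative DNA ligase, was at 66.48 to 79.14 FPKM in WT and lower in all 6 edited libraries, at 30.45 to 57.42 FPKM (differences -0.84 and -0.58, adjusted p = 0.232 and 0.405). Ahcy, which clears the by-product of methyl transfer, averaged 33.8 ± 11.1 FPKM in WT and 18.6 ± 4.33 FPKM under the label Carm1-/- (difference -0.79, adjusted p = 0.376). Dppa3, the maternal factor that keeps Uhrf1 from its targets, was named after its values were seen: it was at 4693.38 to 9905.65 FPKM over the 9 libraries, far above all 8 genes, with differences of 0.06 in both comparisons with WT (adjusted p = 0.939 and 0.949).

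Among readers of CpG sites 7 of 12 listed genes were in the table, and 4 and 6 of these 7 were lower under the labels H3R17H and Carm1-/- (medians -0.34 and -0.25). Cxxc1, which binds unmethylated CpG, averaged 7.84 ± 2.84 FPKM in WT and 13.9 ± 2.28 FPKM under the label Carm1-/- (difference 0.80, adjusted p = 0.426). In the list of base excision and demethylation 9 of 15 tested genes were higher under the label H3R17H (median 0.26) and 8 under the label Carm1-/- (median 0.05). Tdg, the glycosylase that removes the bases Tet enzymes oxidise, was at 20.62, 20.17 and 25.18 FPKM in WT. It was at 9.61, 3.86 and 9.49 FPKM under the label H3R17H and at 15.54, 7.56 and 7.93 FPKM under the label Carm1-/-. All 6 edited libraries thus lay below WT (differences -1.49 and -1.08, adjusted p = 0.224 and 0.353). Gadd45b, a stress gene also tied to demethylation, averaged 2.12 ± 2.87 FPKM in WT and 11 ± 5.17 FPKM under the label H3R17H (difference 2.27, adjusted p = 0.224). Under the label Carm1-/- it averaged 6.85 ± 1.93 FPKM (difference 1.72, adjusted p = 0.336). The highest WT library, at 5.39 FPKM, lay above the lowest of this label, at 5.32 FPKM, so these groups overlapped. Gadd45g, on the same list, was lower under both labels (differences -0.87 and -0.16, limma adjusted p = 0.462 and 0.929). Neil1, another glycosylase of this pathway, averaged 6.08 ± 2.55 FPKM in WT and 1.89 ± 0.0905 FPKM under the label Carm1-/- (difference -1.23, adjusted p = 0.27).

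The list around Trim28, its partners with other zinc finger and chromatin genes, divided evenly, with 9 of 18 tested genes higher under the label H3R17H and 8 under the label Carm1-/- (medians -0.03 and -0.19), while Trim28 itself had the narrowest intervals. Zfp57, the zinc finger protein that brings Trim28 to imprints, was at 13.73, 21.9 and 13.62 FPKM in WT, at 10.18, 8.45 and 4.13 FPKM under the label H3R17H and at 11.57, 6.65 and 6.95 FPKM under the label Carm1-/-. All 6 edited libraries lay below WT (differences -1.06 and -0.90, adjusted p = 0.275 and 0.405). Zfp42, a pluripotency gene and also an epiblast marker here, encodes a zinc finger protein not shown here to act with Trim28. It lay above WT in all 6, at 74.28 to 135.74 FPKM against 45.48 to 50.2 FPKM (differences 0.92 and 1.15, adjusted p = 0.224 and 0.196). Cbx3, a heterochromatin protein, averaged 24.8 ± 10.9 FPKM in WT and 7.49 ± 5.42 FPKM under the label H3R17H (difference -1.87, adjusted p = 0.247).

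**Figure D4:**
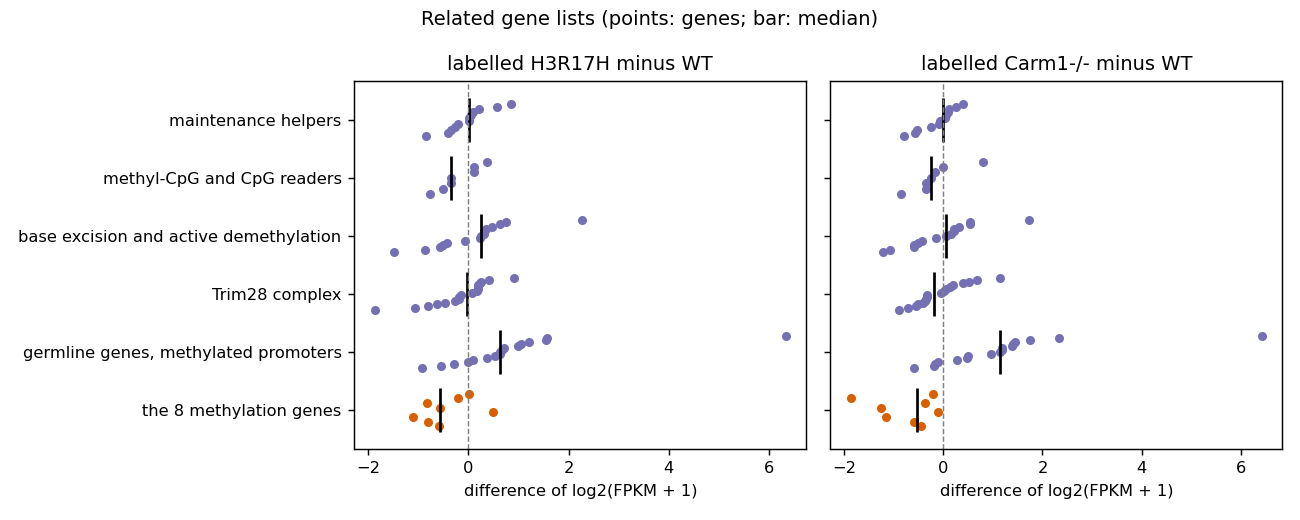
Difference of log2(FPKM + 1) from WT for each tested gene of the 5 related lists and for the 8 methylation genes (points), with the median of each list (bar), for both edited labels. Medians of the 8 genes are -0.57 and -0.53, and those of the germline list 0.63 and 1.15, with Rhox5 at 6.34 and 6.43.

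The last list held germline genes whose promoters are known to be silenced by methylation in other tissues. Of 17 tested, 13 were higher under the label H3R17H and 13 under the label Carm1-/-, with medians of 0.63 and 1.15, while 47.7% and 46.3% of all genes were higher. In 2 of the 17 every WT library was under 1 FPKM, so these passed the filter on low values through the edited groups. Of the other 15, 11 and 11 were higher, with medians of 0.63 and 0.97. Several of these 15, Dazl and Ddx4 among them, had fewer than 3 WT libraries at 1 FPKM or more. They passed only with edited libraries counted, so the 15 are not free of this selection. At an unadjusted p under 0.05 were 3 and 6 of the 17, all higher, or 2 and 4 of those 15, against 6.41% and 5.25% of all genes with higher values at that p. The limma fit called none. Rhox5, an X-linked homeobox gene put on the list with its higher level known, was at 0.21 to 0.66 FPKM in WT, against 16.67 to 411.6 FPKM in the 6 edited ones (differences 6.34 and 6.43, adjusted p = 0.155 and 0.178). Its values were 45.38 and 16.67 FPKM in library 1 labelled H3R17H and Carm1-/-, which held Y-linked transcripts like WT. The edited libraries without such transcripts were at 116.85 to 411.6 FPKM. The part of sex in this list was not tested. Tex19.1, which guards against retroelements, was at 49.32 to 153.52 FPKM in WT, against 215.97 to 260.8 FPKM under the label H3R17H (difference 1.57, adjusted p = 0.22). Under the label Carm1-/- it was at 127.98 to 268.67 FPKM, overlapping WT (difference 1.18, adjusted p = 0.317). Asz1, a gene of the piRNA pathway, was at 4.42 to 8.04 FPKM in WT, against 9.48 to 17.39 FPKM in the edited libraries, without overlap (differences 1 and 1.15, adjusted p = 0.264 and 0.275). Tex13 was listed at 0 in all WT libraries and at 3.12, 11.11 and 1.56 FPKM under the label Carm1-/- (limma adjusted p = 0.196), against 0, 0 and 0.2 FPKM under the label H3R17H (adjusted p = 0.957). Dazl and Ddx4, classic germ cell genes, were at most 1.76 FPKM in any library.

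Among the 8 genes Tet2 had the smallest unadjusted p, 0.0149 under the label Carm1-/-. Over the 9 libraries the genes with the pattern most like it, by Pearson's r of log2(FPKM + 1) among 6086 genes, were Chfr (r = 0.97), Smpdl3a (0.94), Rhot2 (0.93), Pwwp2b (0.93) and Hjurp (0.92). Chfr, a mitotic checkpoint ubiquitin ligase, was at 9.66 to 13.9 FPKM in WT, against 11.17, 5.05 and 3.18 FPKM in libraries 1 to 3 labelled Carm1-/-. Without libraries 2 and 3 of that label, the farthest from the median of Tet2, r was 0.61, 0.61, -0.1, 0.24 and 0.26 over 7 libraries, so the likeness rests on those libraries.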

How the data were processed

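RNA-seq was read in 9 libraries, grouped by sample title. The values are FPKM that the authors computed and deposited as 1 table, per the labels. The submitters' processing notes list Bowtie 0.12.2, with mm10 and GRCm38 as builds; for the quantifier and the annotation, nothing was given in the sources used here. All 9 value columns matched a sample description, and 0 were left over. Here log2(FPKM + 1) of the 11850 genes at 1 FPKM or more in at least 3 libraries entered a limma 3.58.1 fit with an intensity trend (R 4.3.3), with 1 mean per group and 3 contrasts, adjusted by Benjamini-Hochberg over all tested genes. The pseudocount understates the changes of low genes. Coordinates are 1-based, from GENCODE M21 (GRCm38), and promoter sequences from RefSeq (GRCm38.p6), matched by symbol. Python 3.11.15, pandas 2.3.3 and matplotlib 3.10.9 served for descriptions and plots.

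The genes and lists were chosen with earlier results of these data known. Named were the 8 genes, Carm1 and Raver1, up to 3 genes per list and comparison by smallest p with a mean of 5 FPKM in the higher group (not all of these are described), and the 5 genes most like the member with the smallest p. Genes outside this rule were Dppa3, Dazl, Ddx4, Aire, Zbtb45 and the lineage and sex markers, the latter named for their values (Gata2, Elf5, Prdm14, Fgf4, Tdgf1, Pdgfra, Gata6, Krt7, Krt8, Krt18, Tfap2c and Xist), all chosen after their values were seen. Alternatives changed 1 choice at a time: pseudocount, filter, scaling, weights, the libraries fitted, a Y-linked term (at least 1 FPKM over 4 genes), the replicate number, and each library left out.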

Additional observations from a re-analysis of the deposited data

How the results depend on the processing

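Of 456 recomputed differences of the 8 genes, 442 kept their direction and their side of the threshold, and 11 changed direction. The other 3 passed the threshold. They were Dnmt3b in H3R17H vs WT with only the groups compared, and Dnmt3b and Tet2 in Carm1-/- vs WT without library 1 labelled Carm1-/-. Many of the 442 could not have changed direction. A group difference stays the same with another filter, only the groups compared, the replicate block, or a library of the third group left out. The count of the 8 genes called was 1 in H3R17H vs WT with only the groups compared, and 0 to 2 in Carm1-/- vs WT over the fits that left out a library. Over all genes, against 0 in each comparison as reported, H3R17H vs WT gave 240 with only the groups compared, 192 with array quality weights, 1 with a pseudocount of 5 and 0 to 125 with a library left out, the most without library 1 labelled Carm1-/-. Carm1-/- vs WT gave 1 with a pseudocount of 0.1, 1 with array quality weights and 0 to 549 with a library left out, again the most without that library. Carm1-/- vs H3R17H gave 1 with either pseudocount, 2 with median-of-ratios scaling, 2 with quantile normalization and 0 to 10 with a library left out. With the Y-linked term Uhrf1, Tet2 and Trim28 in H3R17H vs WT were 0.45, 0.49 and -0.16. With a library left out, Uhrf1 and Trim28 in that comparison ranged from -0.88 to 0.01 and from -0.05 to 0.1, Dnmt3l in Carm1-/- vs WT from -0.4 to 0.16, and Dnmt1, Dnmt3a and Dnmt3b in Carm1-/- vs H3R17H from -0.07 to 0.36, -0.08 to 0.5 and -0.58 to 0.24. None of these had passed, and the cause was not tested. With the replicate number as a block limma called 0 genes, and Dnmt3b in H3R17H vs WT was -1.1 (adjusted p = 0.279). In this fit only the SE and p could change, not the difference, because every group holds the same replicate numbers. The numbers share no stated source, and deviations of same-numbered libraries correlated by -0.05 to 0.18, so they were not treated as pairs. Depth is unknown, so the counting error of low values could not be computed.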
